A study of Homo sapiens with 41 samples.

Results

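The 49 ribosome biogenesis factors described here are proteins that process ribosomal RNA and assemble the ribosomal subunits. They were taken by name, mapped from Ensembl identifiers, from a table of 58721 annotated genes measured in T98G cells, and the rule for taking them used no measured value, although the list was drawn up with earlier results of these data known. All 49 passed the filter on low counts, as did 21629 genes in all. T98G is an established human glioblastoma cell line that arrests its growth without serum. Cells seeded separately for each time point were starved of serum for 72 h, stimulated with medium holding 20% fetal calf serum, and harvested every 10 min from 0 min (starved, unstimulated) to 400 min. Each of the 41 time points had 1 library of total RNA depleted of rRNA, and no time point had a replicate.

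A ribosome is built in the nucleolus. RNA polymerase I makes a long precursor RNA, small nucleolar RNAs held in protein particles (snoRNPs) guide its chemical modification and cleavage, and successive sets of assembly factors fold and trim it into the precursors of the small (pre-40S) and large (pre-60S) subunits, which are then exported. The factors are made by RNA polymerase II like other mRNAs, and cells that leave quiescence are known to raise them before they grow and divide. MYC, a transcription factor induced by serum, is known to bind the letters CACGTG, the canonical E-box, together with its partner MAX.

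The promoter windows of these genes held that letter string often. RefSeq windows on GRCh38.p14, which run from 250 bases before to 50 after an annotated start, were found for 41 of the 49 genes. CACGTG, which reads the same on both strands, lay in a window of 23 of the 41 genes (56.1%). It lay in 8.77% of all genes with a window, in 12.4% of the protein-coding genes tested and in 12.8% of the protein-coding genes that were higher at 400 min. The 23 genes held 26 copies, and 21 of the copies began within 40 bases of the start. The lines that follow show up to 30 bases, 5′ to 3′ on the strand of the gene, for the 5 genes with the largest and the 3 with the smallest rise among those holding the letters (capitals), since these are the places where a common element stands in genes that rose by very different amounts.
DDX21, chr10:68956604-68956633, plus strand: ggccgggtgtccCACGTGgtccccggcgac
LYAR, chr4:4290068-4290097, minus strand: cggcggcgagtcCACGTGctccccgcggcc
RRP9, chr3:51941892-51941921, minus strand: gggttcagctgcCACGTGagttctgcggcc
NOP2, chr12:6568242-6568268, minus strand: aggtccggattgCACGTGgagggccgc
NOC3L, chr10:94362903-94362932, minus strand: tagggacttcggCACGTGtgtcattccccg
NAT10, chr11:34105602-34105631, plus strand: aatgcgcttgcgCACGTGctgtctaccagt
FBL, chr19:39846356-39846385, minus strand: tgcgctcttttcCACGTGcgaaagccccgg
NOP10, chr15:34343130-34343159, minus strand: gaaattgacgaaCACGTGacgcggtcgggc
The median log2 change at 400 min was 1.71 over the 23 genes with the letters (0.51 to 2.66) and 1.42 over the 18 without (0.44 to 2.85), so the ranges overlapped almost throughout. The gene with the largest rise, NOP16, had a window without them. The letters CCGGAAG, searched on both strands as a match to the ETS factor motif, lay in 15 of the 41 genes (36.6%) and in 21.6% of the protein-coding genes tested. The GC box GGGCGG, searched on both strands, lay in 32 of the 41 (78.0%) and in 75.5% of the protein-coding genes tested. The ETS letters lay in 27.0% of the protein-coding genes that were higher at 400 min. A match describes the letters of the window and was not tested as a binding site.

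Libraries held between 18206982 and 64948114 counts (median 41773419). A normalized count is the count divided by the size factor of its library (median of ratios), and size factors ran from 0.447 to 1.60. Levels and changes are therefore shares of the RNA sequenced, and RNA per cell cannot be told apart from the composition of the RNA. The exon counts of total RNA hold spliced and unspliced transcripts. Of the cell line markers, VIM (34424 to 62027 normalized counts) and CD44 (13751 to 32466) were high, while SOX2, GFAP and S100B stayed at or below 6.23 and NES and OLIG2 at or below 64.99. CD68 (1404 to 2362) and KRT18 (1385 to 3602) were also present, and 8 other markers of immune, endothelial, epithelial and neural cells stayed at or below 30.2.

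Every one of the 49 factors was higher at 400 min than at 0 min. The median log2 change was 1.59, from 0.44 for IMP3 to 2.85 for NOP16, against a median of -0.00418 over all genes tested. Changes were read from a natural cubic spline through the 41 libraries (edgeR quasi-likelihood test), with a standard error (SE) taken from how far libraries scattered around it, and a gene was called at a Benjamini-Hochberg adjusted p below 0.01 over all 21629 genes. At 400 min, 24.2% of all genes were called higher and 22.4% lower. None of the 49 was lower by edgeR, by DESeq2 or at an unadjusted p below 0.05. The factors held 0.227% of the counts at 0 min and 0.632% at 400 min. All 49 changed over the course in the joint test of the spline (75.5% of all genes), and all 49 had autocorrelated profiles by the Ljung–Box test at lag 1 (60.9% of all genes).

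**Figure D1:**
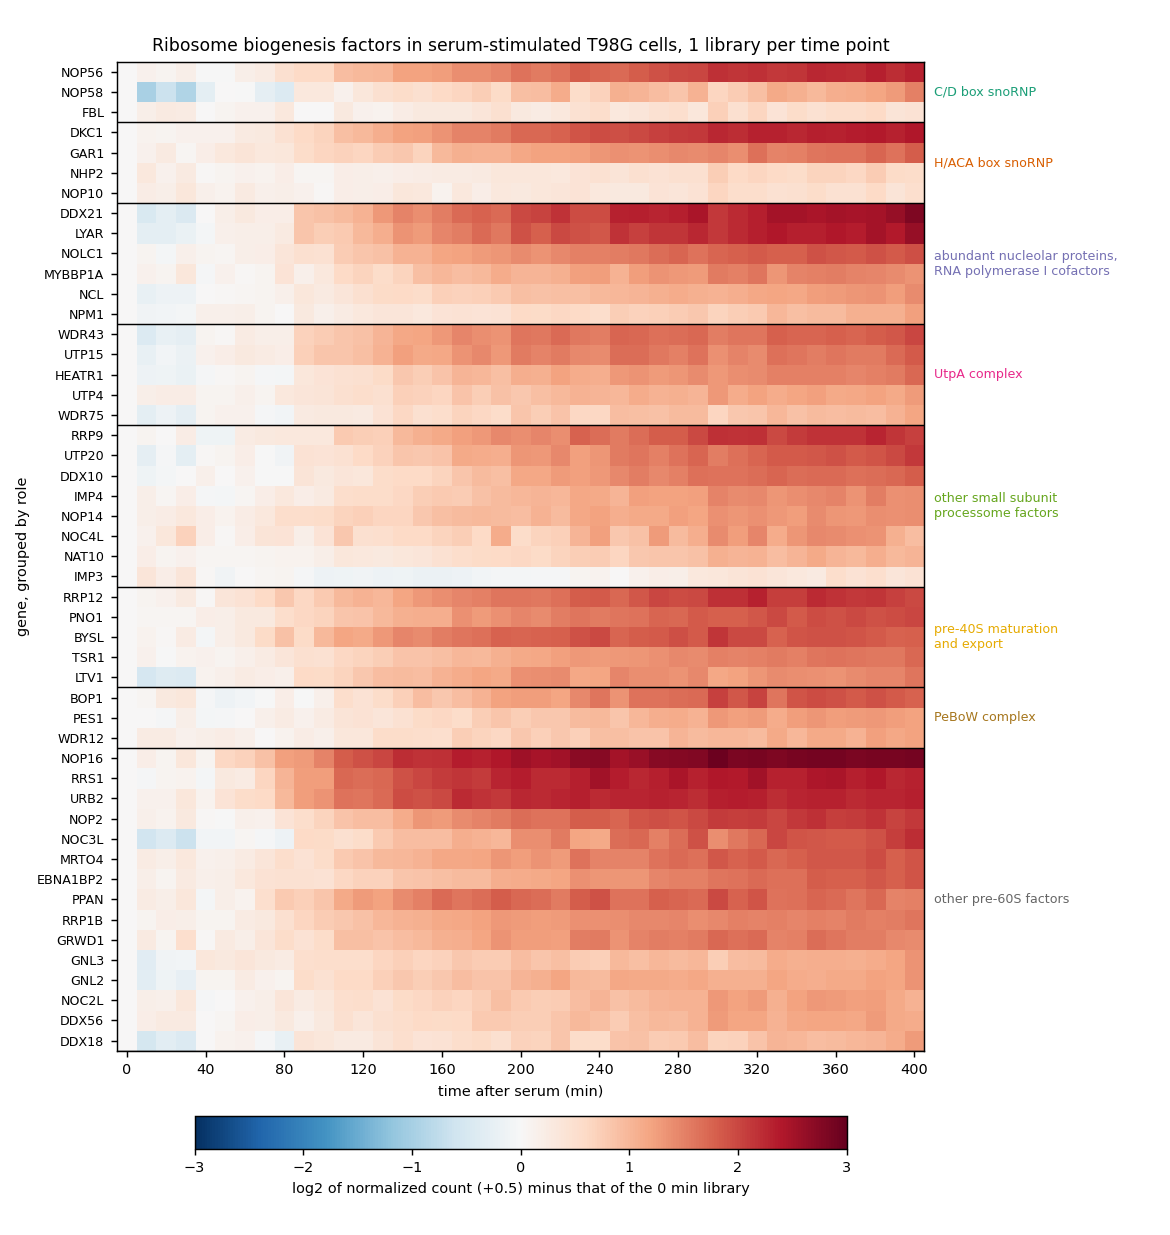
Each row is 1 of the 49 factors, grouped by role and ordered by its rise at 400 min, and each column is 1 of the 41 libraries (time after serum in min). Colour gives the log2 normalized count minus that at 0 min, from blue (lower) to red (higher). NOP16, RRS1 and URB2 were the first to darken, IMP3 stayed pale to the end, and several rows were blue at 10 to 30 min.

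The rise in exon counts came mostly after 60 min, and it is given here at chosen times of a smooth curve. At 30 min no factor was called higher or lower by edgeR (1.71% and 0.342% of all genes), nor by DESeq2. At an unadjusted p below 0.05 by edgeR, 11 were higher and 2 lower. The share of all genes at that looser threshold was not computed. At 60 min 9 factors were higher than at 0 min (5.15% of all genes), namely DKC1, PNO1, RRP12, NOP16, GNL3, RRS1, EBNA1BP2, RRP1B and URB2. This count was 0 with size factors from the spike-in RNAs, 0 without the 0 min library, 3 with every second time point and 3 with windows of neighbouring libraries. At 120 min 42 were higher (13.6% of all genes), with a median log2 change of 0.67, and the 7 that were not called were FBL, NOP58, NHP2, NOP10, IMP3, NOC4L and DDX18. The count at 120 min was 18 with spike-in size factors and 15 without the 0 min library. At 240 min 48 were higher (21.6% of all genes), all but IMP3, with a median of 1.30.

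Between successive times the movement was almost wholly upward. From 30 to 60 min 13 factors rose (4.75% of all genes) and 1, IMP3, fell by 0.21 on the log2 scale (3.23% of all genes fell). From 60 to 120 min 41 rose (11.1% of all genes). From 120 to 240 min all 49 rose (18% of all genes), IMP3 included. From 240 to 400 min 38 rose (14.8% of all genes). The other 11, namely FBL, NOP10, UTP15, NOC4L, BYSL, LTV1, GNL2, RRS1, PPAN, GRWD1 and URB2, were not called in either direction over that last step, and the fitted curves of 7 of them were highest before 400 min. The count of 13 from 30 to 60 min was 0 with spike-in size factors, 1 with windows of neighbouring libraries, 2 with every second time point, 5 without the 0 min library and 26 with evenly spaced knots. In those alternatives, with TMM normalization and without the filter, no factor was called lower from 30 to 60 min. The count lower stayed at 1 with DESeq2, without the 400 min library and without the 4 libraries farthest from the curves. The count of 38 from 240 to 400 min was 7 with spike-in size factors and 23 with windows.

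The same can be read from the libraries without a curve. In 48 of the 49 factors the 3 libraries at 380 to 400 min all lay above the 3 at 0 to 20 min, which held for 31.6% of all genes. The exception was IMP3, with 908, 1172 and 1037 normalized counts at 0, 10 and 20 min and 1289, 1161 and 1226 at 380, 390 and 400 min. A factor was taken as separated from the start at the first time from which every later library lay above the highest of 0 to 30 min. The median of that time was 70 min, and 40 of the 49 were separated by 100 min. The earliest was 40 min, which is the first time that the rule allows. The same was not computed over all genes, so the count describes the factors only. Profiles were alike: the Pearson correlation of a factor with the mean profile of the other 48, over the 41 time points and on a log2 scale, had a median of 0.97 and was at least 0.9 in 44. The lowest was that of IMP3 (0.46). The points share a common rise and the same libraries, so the value describes the resemblance only.

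The C/D box snoRNPs carry out 2′-O-methylation of rRNA. Their core proteins NOP56, NOP58 and fibrillarin (FBL, the methyltransferase) rose by different amounts. NOP56 (chr20:2652593-2658393) had 3416, 3850, 6706, 11481 and 17011 normalized counts at 0, 60, 120, 240 and 400 min, a log2 change of 2.32 (SE 0.08, adjusted p = 1.2e-27 by edgeR). FBL (chr19:39834458-39846379) had 914, 1005, 998, 1310 and 1244 at the same times, a change of 0.51 (SE 0.11, adjusted p = 6.7e-05). The NOP56 libraries at 120 min and later all lay above those of the first hour, whereas FBL already had 1100 counts at 20 min. FBL lost its call with spike-in size factors (adjusted p = 0.025) and without the 0 min library (adjusted p = 0.13). NOP58 had 1240, 630, 1220 and 3534 normalized counts at 0, 10, 60 and 400 min, a change of 1.38 (SE 0.21).

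The H/ACA box snoRNPs turn uridine into pseudouridine in rRNA. Dyskerin (DKC1), the pseudouridine synthase, had 1366, 1634, 2670, 5277 and 7261 normalized counts at 0, 60, 120, 240 and 400 min, a log2 change of 2.38 (SE 0.06, adjusted p = 7.2e-33 by edgeR). Its partner NOP10 went from 1023 to 1230, 1158, 1281 and 1453, a change of 0.51 (SE 0.09, adjusted p = 6.2e-06). The highest NOP10 library, at 300 min, held 1604. GAR1 rose by 1.71 (SE 0.10) and NHP2 by 0.61 (SE 0.08). The catalytic subunit and GAR1 thus had larger fitted changes than the 2 small proteins NHP2 and NOP10. Without the 0 min library NHP2 (adjusted p = 0.33) and NOP10 (adjusted p = 0.20) lost their calls, and NOP10 also with spike-in size factors (adjusted p = 0.029).

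The next 6 genes encode abundant nucleolar proteins and cofactors of RNA polymerase I. DDX21, an RNA helicase of the nucleolus, had 2961, 2168, 3636, 6085, 11523 and 20664 normalized counts at 0, 10, 60, 120, 240 and 400 min. Its log2 change of 2.66 (SE 0.15, adjusted p = 1.1e-17 by edgeR) was the second largest of the 49. NPM1 (nucleophosmin), the factor with the highest level per kb of exon at both 0 and 400 min, had 23475, 29005, 33972 and 54931 at 0, 120, 240 and 400 min, a change of 1.14 (SE 0.07, adjusted p = 8.2e-18). By 240 min NPM1 had made 53.8% of its change at 400 min, against a median of 79.7% over the 49, and IMP3 had made less (16.3%). LYAR rose by 2.53, NOLC1 (a chaperone of snoRNPs) by 1.92, MYBBP1A by 1.49 and nucleolin (NCL) by 1.38. Reads that map to several places were counted for each gene, and 49 annotated NPM1 pseudogenes together held 5.44% of the NPM1 count at 0 min and 5.15% at 400 min.

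The small subunit processome gathers on the nascent precursor RNA, and its UtpA complex binds first. The 5 UtpA genes measured rose by 1.05 to 1.93. WDR43 had 1671, 3076, 4836 and 6704 normalized counts at 0, 120, 240 and 400 min, a log2 change of 1.93 (SE 0.11, adjusted p = 1.0e-19 by edgeR). WDR75 went from 1042 to 1255, 1599 and 2347, a change of 1.05 (SE 0.11, adjusted p = 5.8e-11). All 5 were called at 120 min. UTP15, HEATR1 and UTP4 rose by 1.69, 1.62 and 1.21.

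Of the 8 other small subunit processome factors, RRP9, a protein of the U3 snoRNP, rose most. It had 420, 706, 1337 and 1755 normalized counts at 0, 120, 240 and 400 min, with the highest library at 380 min (2051), a log2 change of 2.24 (SE 0.14, adjusted p = 3.5e-18 by edgeR). IMP3, which joins U3 to the precursor RNA, had 908, 1172, 914, 840, 972 and 1226 at 0, 10, 60, 120, 240 and 400 min. Its change of 0.44 (SE 0.08, adjusted p = 1.8e-05) was the smallest of the 49, and it followed a trough: the curve stood at -0.15 (SE 0.08) against 0 min at 120 min and at 0.07 (SE 0.08) at 240 min, neither called. IMP3 lost its call at 400 min with spike-in size factors (adjusted p = 0.060), evenly spaced knots (adjusted p = 0.038), windows of neighbouring libraries (adjusted p = 0.055) and without the 0 min library (adjusted p = 0.43). Its partner IMP4 rose by 1.45. UTP20 rose by 2.04, the helicase DDX10 by 1.75, NOP14 by 1.40, NOC4L by 1.31 and the acetyltransferase NAT10 by 1.02. NOC4L was the least abundant of the factors in counts (144 at 0 min) and its call at 400 min was lost without the 0 min library (adjusted p = 0.0103, change 1.98).

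The 5 factors of pre-40S maturation and export all rose, by 1.51 to 2.14, and all were called at 120 min. RRP12, needed for subunit export, had 710, 959, 1453, 2533 and 2806 normalized counts at 0, 60, 120, 240 and 400 min, a log2 change of 2.14 (SE 0.11, adjusted p = 3.3e-21 by edgeR). LTV1 had 753, 531, 890, 1323, 1706 and 2310 at 0, 10, 60, 120, 240 and 400 min, a change of 1.51 (SE 0.12, adjusted p = 2.0e-15). BYSL reached its fitted peak at 292 min and stood at 1073 at 400 min, against 1369 at 300 min and 307 at 0 min. PNO1, TSR1 and BYSL rose by 1.98, 1.63 and 1.83.

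The PeBoW complex (PES1, BOP1 and WDR12) is needed to process the large subunit rRNAs. BOP1 had 504, 686, 1532, 2082 and 1712 normalized counts at 0, 120, 240, 300 and 400 min, a log2 change of 1.93 (SE 0.14, adjusted p = 2.6e-16 by edgeR). WDR12 had 589, 747, 1100 and 1357 at 0, 120, 240 and 400 min, a change of 1.16 (SE 0.09, adjusted p = 1.1e-15). PES1 rose by 1.30. The midpoints of the 3 rises (defined further on) lay between 166 and 172 min, with SEs of 18.6 to 57.9 min.

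The largest group held 15 other pre-60S factors, and 6 of the 9 genes called at 60 min were among them. NOP16 (chr5:176383946-176388927), a nucleolar protein of the pre-60S particle, had 426, 686, 1596, 2824 and 3132 normalized counts at 0, 60, 120, 240 and 400 min. Its log2 change of 2.85 (SE 0.11, adjusted p = 2.6e-26 by edgeR) was the largest of the 49, a 7.20-fold rise. DDX18, a helicase, had 2366, 1640, 2594, 2861, 3456 and 5697 at 0, 10, 60, 120, 240 and 400 min, a change of 1.18 (SE 0.14, adjusted p = 1.2e-09). RRS1, which helps to bring the 5S RNA into the particle, rose by 2.36, URB2 by 2.30, the rRNA methyltransferase NOP2 by 2.14 and NOC3L by 2.09. The remaining 9 (MRTO4, EBNA1BP2, PPAN, RRP1B, GRWD1, GNL3, GNL2, NOC2L and DDX56) rose by 1.21 to 1.89. Nucleostemin (GNL3) had 2722 at 0 min and 6893 at 400 min.

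**Figure D2:**
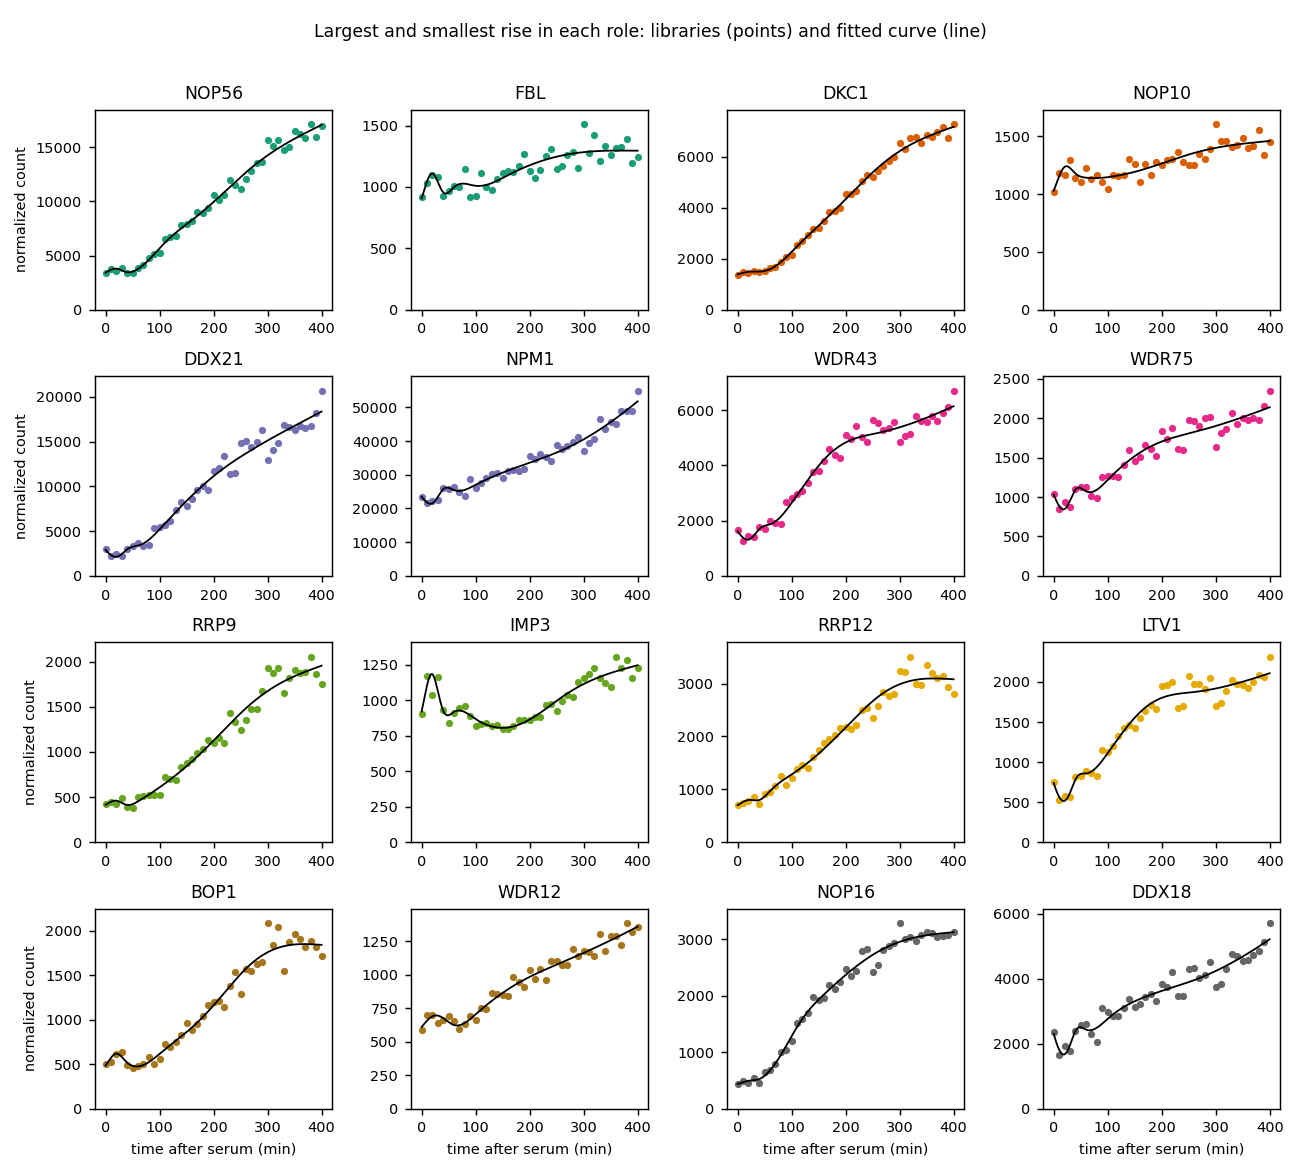
Normalized count (y axis, from 0) against time after serum in min (x axis) for the gene with the largest (left of each pair) and the smallest rise in each of the 8 roles. Points are single libraries and the line is the fitted spline. DKC1 and NOP56 climbed with little scatter, IMP3 passed through a trough before its rise, and DDX21, LTV1 and DDX18 were lower at 10 to 30 min than at 0 min.

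Some shared sequence limits single values. NOP2 shares 54.4% of its exon bases with a gene that had 8588 normalized counts at 0 min and 7866 at 400 min, and PPAN shares 47.6% with the read-through gene PPAN-P2RY11, whose counts (275 and 738) nearly parallel its own (287 and 822). Reads that overlap several genes were counted for each. LTV1 shares 27.6% and RRS1 11.3% with an unnamed gene each. Of the factors, 8 have snoRNA genes inside them (27 in all), which are cut from their introns. At 400 min 13 of the 27 were called higher by edgeR (24.2% of all genes), and the median log2 change of the 27 was 1.36. Several of the 13, among them SNORD86 (86 bases) and SNORA75 (137 bases), share bases with annotated exons of the host. Reads of the host can add to their counts, and a rise of the snoRNAs themselves was not tested. None held more than 3.43% of its host's count at 0 min, and the rRNA-depleted libraries used here are not a measure of mature small RNAs.

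A midpoint time was taken for each factor, as the time at which its fitted log2 curve first passed the middle between its value at 0 min and its highest value. Over the 49 the median was 138 min, with a jackknife SE of 8.59 min from leaving out each library in turn. URB2 (89.2 min, SE 3.15 min), RRS1 (90.4 min, SE 6.96 min), NOP16 (93.1 min, SE 6.01 min), PPAN (95.0 min, SE 3.89 min) and BYSL (98.6 min, SE 6.82 min) were the earliest with an SE under 20 min, apart from FBL and IMP3. These neighbours in the order differed by less than their errors. NPM1 had the highest value on the spline (223 min, SE 13.0 min), followed by NHP2 (209 min), whose SE of 204 min leaves its place undefined. In all, 11 factors had an SE over 20 min. The midpoints of FBL (13.9 min), NOP10 (17.96 min) and IMP3 (8.05 min) were set by the higher libraries at 10 to 30 min, and with a running mean of 3 libraries in place of the spline they were 176, 211 and 299 min. By that running mean NPM1 stood at 202 min, before NOP10, NHP2 (242 min) and IMP3.

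By role, median midpoints ran from 120 min for the other pre-60S factors and 126 min for the pre-40S factors to 168 min for PeBoW, and the ranges of the roles overlapped. UtpA, which acts first on the precursor RNA, had a median of 133 min. By 120 min the median factor had made 41.1% of its log2 change at 400 min, and by 240 min 79.7%. Across the 49, the spline midpoint and the gene length (log10) had a Pearson r of 0.35 and a Spearman rho of 0.34. These values include FBL (11.9 kb), NOP10 (4.02 kb) and IMP3 (9.62 kb), with spline midpoints of 13.9, 17.96 and 8.05 min. By the running mean these genes stood at 176, 211 and 299 min. The correlation was not computed with the running mean, so a relation between midpoint and length is not established. The size of the rise and the length had an r of 0.02. The correlations are descriptions across genes, which share the same 41 libraries.

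**Figure D3:**
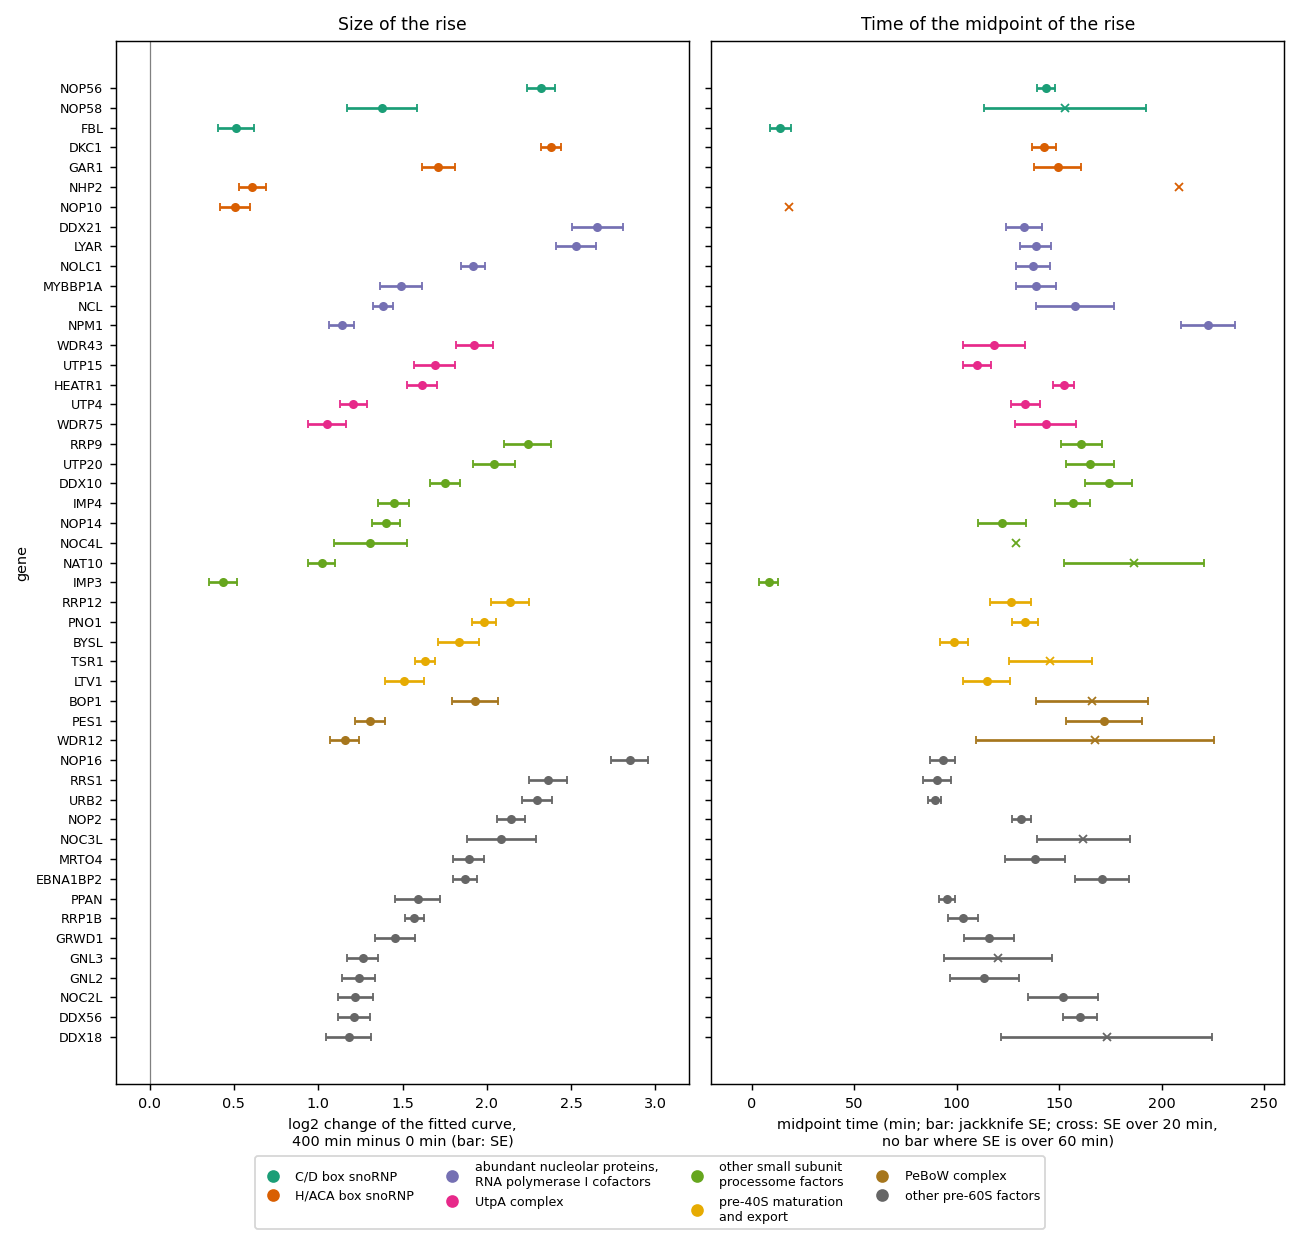
For each of the 49 factors, coloured by role, the left panel gives the log2 change of the fitted curve between 0 and 400 min with its SE, and the right panel the midpoint time in min with its jackknife SE. Crosses mark factors with an SE over 20 min. All 49 changes lay above 0, from 0.44 to 2.85, and midpoints lay between 89.2 and 187 min in all but FBL, NOP10, IMP3, NHP2 and NPM1.

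Part of the set was lower in the first libraries after serum. At 10 min 17 factors were below their 0 min count, and 15 of them were also below it at 20 and 30 min. NOP58 showed the largest difference (-0.98 on the log2 scale), followed by NOC3L (-0.58), DDX18 (-0.53), LTV1 (-0.50) and DDX21 (-0.45). These are differences between single libraries, and no factor was called lower at 30 min in the main fit. Without the 4 libraries farthest from the fitted curves, 1 factor was called lower then. The fitted change at 30 min was above 0 in 35 of the 49. The share of all genes below their 0 min count was not computed, so the 17 are a description only. Of the 13 factors that rose from 30 to 60 min, 8 were below their 0 min count at 30 min. The 17 also moved together later. At 300 min 1 of the 17 lay above its fitted curve against 29 of the other 32, with median departures of -0.15 and 0.13 on the log2 scale. At 250 min 16 of the 17 lay above against 3 of the 32, with medians of 0.12 and -0.12. The 250 and 300 min libraries, with those at 20 and 90 min, were the 4 farthest from the fitted curves over all genes. The 17 had a median of 5.75 kb of exon sequence (all annotated exons merged) and the other 32 of 3.76 kb. Whether the libraries or the exon length play a part in these lower values was not tested.

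Compared per kb of exon (normalized counts divided by exon length), the order of levels changed with the rise. Exon length is that of all annotated exons merged, from a newer GENCODE release than the counts. Genes with long merged exons, such as DDX10 (18.1 kb) and WDR12 (9.62 kb), are therefore placed low, and the order between genes is approximate. At 0 min NPM1 (2825 per kb), NCL (1488), GNL3 (841), NHP2 (834) and NOP56 (690) stood highest, and DDX10 (47.3), WDR12 (61.3) and URB2 (65.8) lowest. At 400 min NPM1 (6609) and NCL (3963) were followed by NOP56 (3437), DDX21 (2228) and GNL3 (2129). DDX21 thus moved from rank 18 to rank 4, NHP2 from 4 to 12 and NOP10 from 6 to 20.

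The rise was set beside 3 related lists, as a description without a test between lists. Of 93 other ribosome biogenesis factors, 84 were higher and 1 lower at 400 min, with a median log2 change of 1.02. Over all genes tested 24.2% were higher and 22.4% lower at that time. The largest rises there were those of NIFK (2.46), MAK16 (2.16) and RPF2 (2.14), and NOP53 fell by 1.02. Of 20 genes for transcription by RNA polymerase I, 15 were higher and 1 lower (median 0.74). POLR1G (3.56), POLR1B (2.03) and POLR1E (1.86), all polymerase subunits, rose most, and UBTF, which organises the rDNA chromatin, fell by 0.37. Of 79 cytosolic ribosomal protein genes 52 were higher (median 0.33), led by RPL10A (0.65), RPS26 (0.64) and RPS7 (0.61). The counts of the 3 lists were not recomputed under the alternatives. At 120 min the counts called higher were 42 of the 49 factors, 55 of 93, 9 of 20 and 4 of 79, against 13.6% of all genes. The E-box letters lay in 32.5%, 5.56% and 6.35% of the genes with a window in the 3 lists. The ETS letters lay in 48.8%, 50% and 34.9% of them, against 36.6% of the factors with a window.

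**Figure D4:**
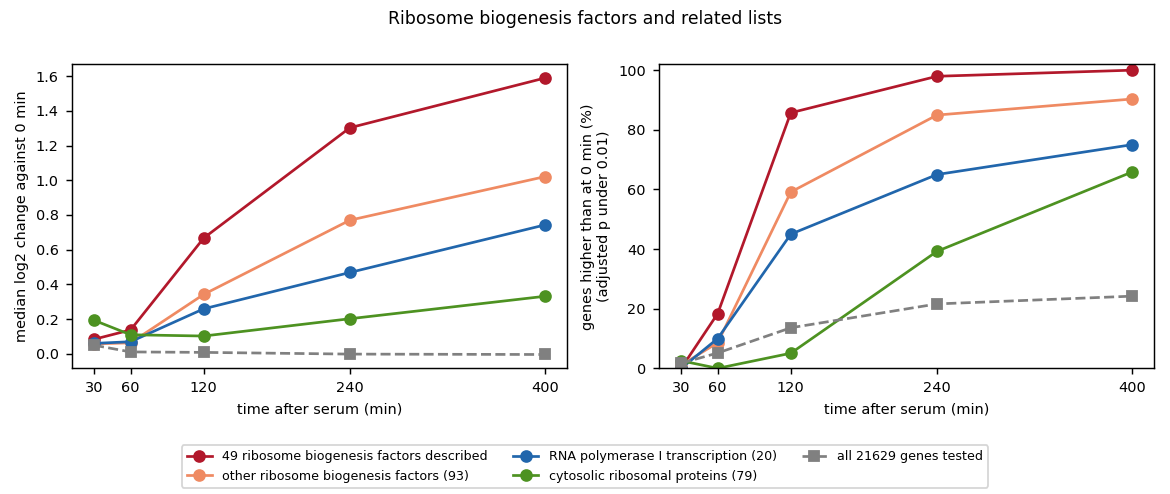
Median log2 change against 0 min (left) and the share of genes called higher in % (right) at 30, 60, 120, 240 and 400 min, for the 49 factors, 3 related lists and all 21629 genes tested. At 400 min the medians were 1.59 for the 49 factors, 1.02, 0.74 and 0.33 for the lists, and near 0 for all genes.

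Of the 3 MYC family genes looked up, MYC was called higher before any of the factors. It had 734, 2353 and 5252 normalized counts at 0, 30 and 60 min, a highest value of 5948 at 80 min and 4439 at 400 min. Its log2 change was already 1.62 (SE 0.16, adjusted p = 3.9e-10 by edgeR) at 30 min, when none of the 49 was called. At 60 min it was 2.91 (SE 0.15), when 9 were called. These are exon counts, and the authors report that transcript stability and gene length can delay mRNA profiles. Whether the order of calls is an order of gene activation was not tested. MYCL, at 13.5 normalized counts at 0 min and 0 at 400 min, was called lower at 120, 240 and 400 min, and MYCN did not pass the filter on low counts.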

How the data were processed

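Total RNA depleted of rRNA from 41 libraries (1 per time point) was used. The authors trimmed reads with cutadapt 1.11, aligned them to GRCh38 with STAR 2.5.2a and deposited raw counts per gene over exons from featureCounts, strand-specifically, where a read that maps to several places or overlaps several genes adds to each. The deposited normalized tables of the single libraries were not used. Symbols and positions were those of a GENCODE release newer than the authors', also on GRCh38. The 49 members, the roles and the lists were chosen with earlier results of these data known.

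Genes needed over 10 counts in 1 library and over 2 in 3 consecutive libraries (21629 of 58721), with 77 spike-in sequences and 45 Y-linked pseudoautosomal copies left out of the tests. Counts were fitted in edgeR 4.0.16 (R 4.3.3, limma 3.58.1) with median-of-ratios size factors and a natural cubic spline of time (7 df, knots at 20, 40, 60, 100, 160 and 260 min, 33 residual df, common dispersion 0.005116, robust quasi-likelihood). P-values measure the spread of single libraries about the curve, and neighbouring libraries stand in for replicates. Profiles were tested with the Ljung–Box test. DESeq2 1.42.0 was an alternative. The fit was also run on simulated counts, drawn independently with the same dispersion for every gene and without departures shared within a library. That run cannot show how the fit does where genes depart together in a library, as they did here. Midpoints were refitted by least squares (Python 3.11.15, numpy 2.4.6).

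All 49 members were named. Values in detail were given for the largest and smallest change in each role, and from each other list the 3 largest rises and falls with a mean count of at least 100. NOP58, BYSL, GNL3, MYCL, MYCN, the genes that fell at 10 min and the printed promoter windows were chosen after their values were seen.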

Additional observations from a re-analysis of the deposited data

How the results depend on the processing

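Of 100 recomputed counts of factors, 85 were within 1.5 times the reported one. A count of 0 that stayed at 0 was scored as within it. That holds for factors lower at 400 min under every alternative, and for most counts of factors higher at 30 min. Factors higher at 30 min numbered 3 with evenly spaced knots and 2 without the 4 libraries farthest from the curves, an alternative chosen after seeing the data. Without those 4 libraries 1 factor was lower at 30 min (814 of 21524 genes in all). With evenly spaced knots 1 was lower at 120 min (3283 of 21629 genes). At 60 min the count of 9 became 0 with spike-in size factors, 0 without the 0 min library, 3 with every second time point and 3 with windows of neighbouring libraries. At 120 min the count of 42 became 18 with spike-in size factors and 15 without the 0 min library. From 30 to 60 min the count of 13 became 0 with spike-in size factors, 26 with evenly spaced knots, 5 without the 0 min library, 2 with every second time point and 1 with windows. From 240 to 400 min the count of 38 became 7 with spike-in size factors and 23 with windows. Spike-in size factors moved the median change at 60 min over genes with a mean of at least 50 counts from 0.02 to -0.21 on the log2 scale, and that of the factors from 0.14 to -0.10. The median midpoint was 147 min with evenly spaced knots and 133 to 146 min under the other alternatives. Of 490 log2 changes at 400 min (factor by alternative), 480 kept direction and call, 10 lost the call and none changed sign. The 10 belong to FBL, NHP2, NOP10, IMP3 and NOC4L. The cause was not tested. Fewer libraries entered the fit where libraries were left out. Without the 0 min library, the curve at 0 min was also extrapolated from later libraries. In that alternative 1767 of all genes were called higher at 400 min, against 5236 in the main fit. With 1 library per time point, a value at a single time has no replicate check, and the comparisons with 0 min lean on the 0 and 10 min libraries. No paired analysis was possible because each time point has 1 separately seeded library, and the replicate number 1 that all carry names no pairing.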
